A study of Homo sapiens with 6 samples.

Results

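The genes described here are 45 cytosolic and mitochondrial chaperones with their partner proteins and regulators, taken by gene symbol from a table of read counts that lists 23250 genes. The list names members of the HSP70, HSP110, HSP90 and J-domain families, BAG proteins, HSP90 co-chaperones, proteins named as small heat shock proteins, the cytosolic chaperonin, the mitochondrial folding machinery and the heat shock factors HSF1 and HSF2. All 45 symbols were in the table and all 45 passed the filter on low counts, as did 12406 genes in all. RNA was sequenced from OCI-LY1, an established cell line of diffuse large B-cell lymphoma. All 6 libraries came from cells transfected with siRNA against BCL6, the transcriptional repressor of germinal centre B cells. In 3 libraries, the wild-type rescue, ectopic WT BCL6 was then expressed. In the other 3, the mutant rescue, it was a BCL6 RD2 mutant, altered in a repression domain of the protein. No library without a rescue, and none without the siRNA, was analysed here, so each value compares one rescued culture with another. The labels give neither a time after transfection nor the origin of the replicates, so p-values reflect the spread among these 6 libraries alone, and that spread may be technical.

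Chaperones bind proteins that are not folded or not yet assembled and keep them from aggregating. HSP70 proteins bind short greasy stretches in an ATP-driven cycle that J-domain proteins start and that HSP110 and BAG proteins end by exchanging the nucleotide. Some clients are handed on to HSP90, which finishes the folding of kinases, receptors and transcription factors with its own set of co-chaperones, and BCL6 protein has been described as an HSP90 client in this lymphoma. TRiC, a ring of related CCT subunits, folds actin and tubulin, while HSPD1 and HSPE1 form the chaperonin of the mitochondrial matrix. Heat shock factors switch many of these genes on together by binding repeated GAA units in their promoters.

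The libraries held between 26298456 and 27574867 counts. BCL6 message, counted without telling the cells' own from the introduced copy, stood at 679 ± 24.3 CPM (read counts scaled to library depth, mean ± SD, n = 3) with wild-type BCL6 and 519.9 ± 8.71 CPM (SD, n = 3) with the RD2 mutant, a log2 difference of -0.38 (SE 0.0317, adjusted p = 7.90e-10). The summed BCL6 read count thus differed between the rescues, protein was not measured here, and a part of this difference in the values below cannot be told apart from that of the RD2 mutation. All 8 B cell markers were abundant, with no library below 2076 counts for any of them. The summed counts of 5 T cell markers were 30 to 41 with wild-type BCL6 and 89 to 109 with the RD2 mutant. CD28 held nearly all of these, with 29 to 38 counts against 82 to 102, whereas CD3E had 0 counts in every library. The summed counts of 5 myeloid markers were 1 to 5 against 11 to 17, with MPO at 0 counts throughout. The part of these markers in the values below was not tested. The mutant rescue's replicate 2 stood apart from its partners: its pairs had a chi-square of 4.36 and 5.47 per degree of freedom, against 1.75 for the other mutant pair and 1.596 to 3.013 among wild-type pairs.

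Most of the chaperone genes were lower with the RD2 mutant. Of the 45 genes, 34 (75.6%) were lower, 7 (15.6%) were higher and 4 did not pass the test (edgeR's quasi-likelihood test at a threshold of 0.05, with p-values adjusted by Benjamini-Hochberg over all 12406 genes tested). Over all genes tested, 34.8% were lower and 35.4% were higher, so a call in either direction was common in this comparison. Differences are given throughout as log2 of the mutant over the wild-type rescue. The median difference of the 45 genes was -0.29, beside 0.01 over all genes tested. In bulk RNA, a lower level in each cell and fewer cells with a high level cannot be told apart. Among the 34 lower genes, the mutant rescue's replicate 2 was the highest mutant library for 25. Without that library 35 genes were lower and 7 were higher, and the median was -0.32.

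The changes were modest in size and tight between libraries. Of the 34 lower genes, 7 fell by at least 1.5-fold, and of the 7 higher genes 2 rose by that much. The share of all genes at that size was not computed, so these counts are not read as a result about the 45 genes. The median absolute log2 difference was 0.37 for the 45 genes, beside 0.29 over all genes tested. In a test against a change of at least 1.2-fold (edgeR's glmTreat), 20 of the 45 genes were lower and 4 were higher, beside 17.7% and 19.2% of all genes tested. For 41 of the 45 genes the standard error of the log2 difference was under 0.05. All 3 mutant libraries lay below all 3 wild-type libraries for 34 of the 45 genes, which was so for 35.6% of all genes tested. DNAJA2 was lower by the test although its groups overlapped, and DNAJB1 missed the test although its groups did not. Highly expressed genes were more often lower in general: among all genes of at least 64 CPM, 43.9% were lower and 35.6% were higher, with a median of -0.04. Of the 36 chaperone genes at that level, 28 (77.8%) were lower, 5 were higher and 3 did not pass.

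**Figure D1:**
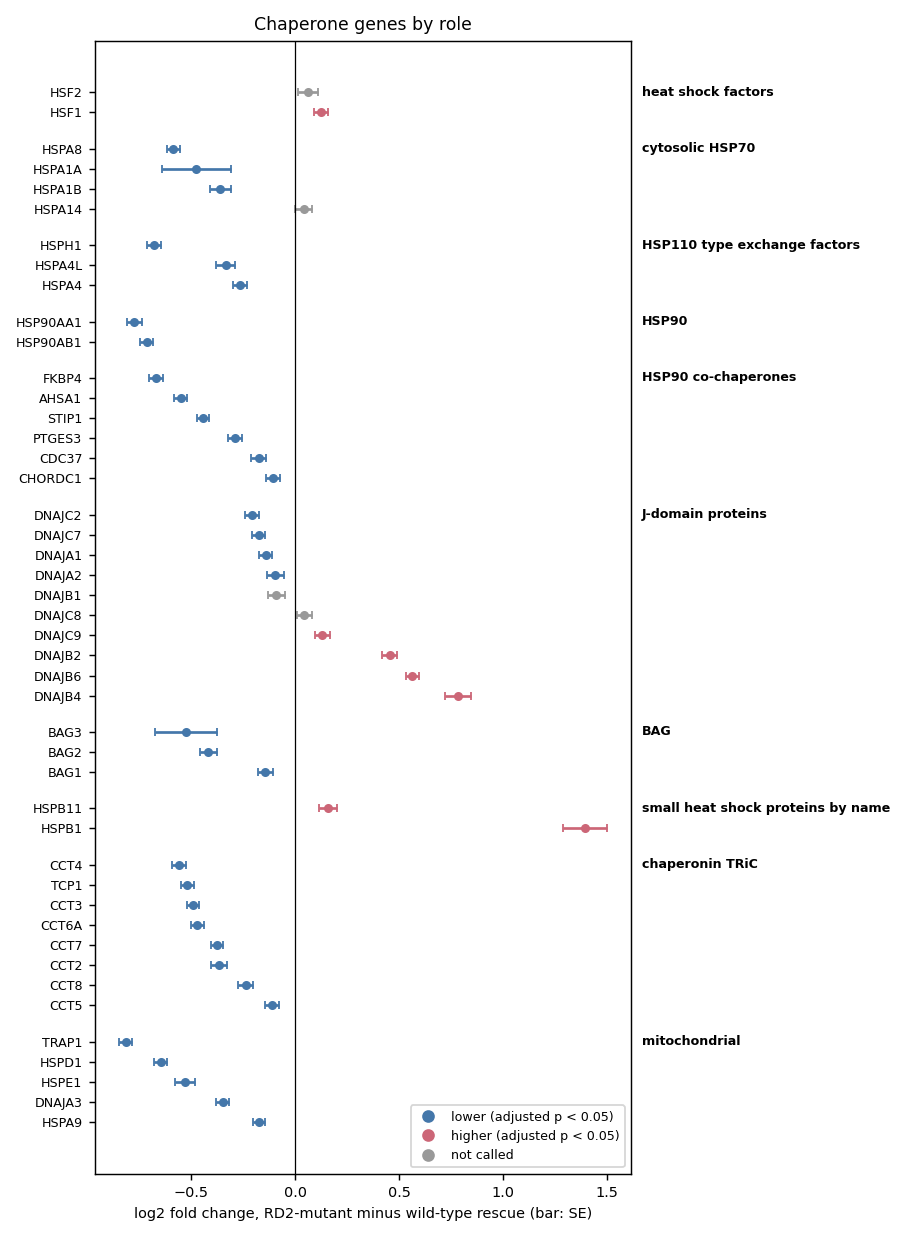
Log2 difference of the mutant over the wild-type rescue for each of the 45 chaperone genes, grouped by role, with the SE as a bar and the call as a colour. The HSP90, HSP110, BAG, co-chaperone, TRiC and mitochondrial genes all lie below 0, the J-domain genes lie on both sides, and HSPB1 is the highest at 1.39.

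**Figure D2:**
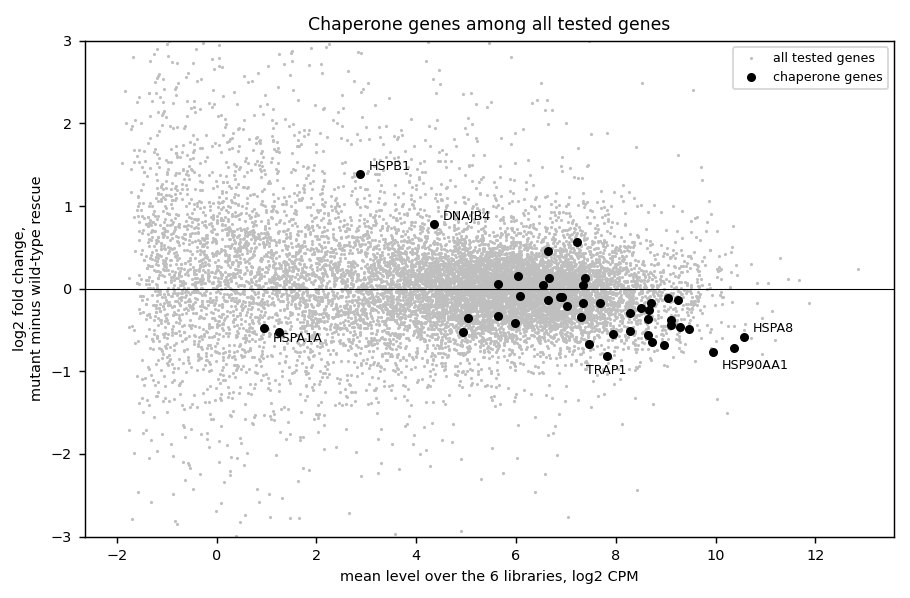
Log2 difference against mean log2 CPM for all genes tested (grey) and the 45 chaperone genes (black). Of the genes tested, 84 lie outside the plotted range. The chaperone genes are mostly abundant genes and mostly lie below the median of all genes, 0.01.

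Together, the 45 genes took a smaller part of the message pool with the RD2 mutant. They held 1.55%, 1.57% and 1.56% of all counts in the wild-type libraries and 1.17%, 1.21% and 1.18% in the mutant libraries. The groups did not overlap, and the mutant rescue's replicate 2 was the highest of its group. TRiC made up the largest share in each library, 0.434% to 0.442% with wild-type BCL6 and 0.333% to 0.349% with the RD2 mutant. The HSP90 pair followed with 0.283% to 0.294% against 0.171% to 0.181%. The 10 J-domain genes, in contrast, held 0.159% to 0.161% against 0.162% to 0.165%.

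**Figure D3:**
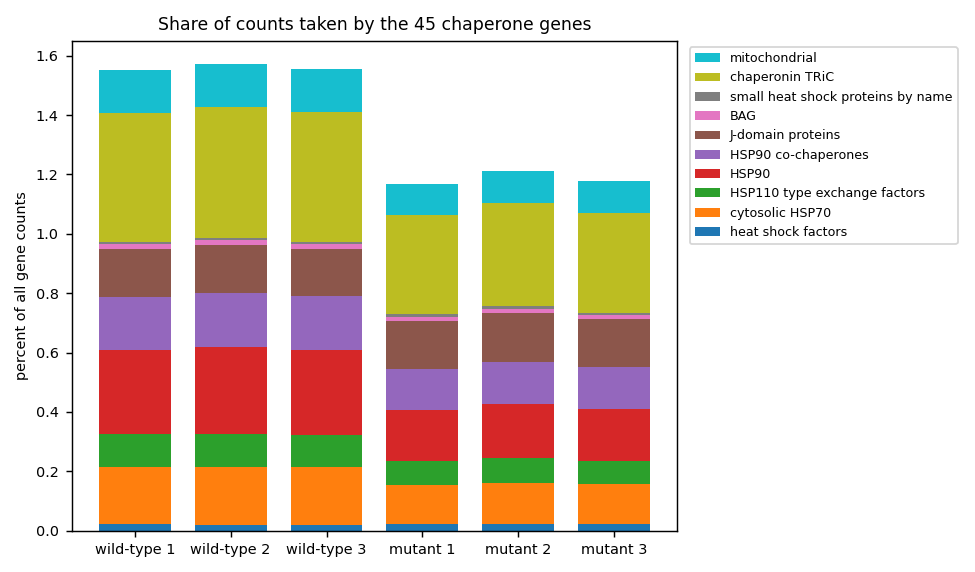
Stacked shares of all gene counts, in percent, taken by the chaperone genes of each role in each of the 6 libraries. The whole list takes 1.55% to 1.57% with wild-type BCL6 and 1.17% to 1.21% with the RD2 mutant.

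Both cytosolic HSP90 genes were lower, and of the 45 genes only TRAP1 fell by more. HSP90AA1, the stress-inducible form, stood at 1217, 1299.8 and 1229 CPM in the wild-type libraries and at 704, 771 and 718 CPM in the mutant libraries. Every mutant library was below every wild-type library, with a log2 difference of -0.77 (SE 0.0355, 1.71-fold, adjusted p = 1.44e-13). HSP90AB1, the constitutive form, stood at 1628, 1680.3 and 1652 CPM against 977, 1046 and 1002 CPM. Its groups were as far apart, with a log2 difference of -0.71 (SE 0.0303, 1.64-fold, adjusted p = 1.55e-14). Exons of HSP90AA1 overlap WDR20 on the other strand and whether the counting used strand is not stated in the sources here. Per kilobase of transcript, HSP90AB1 was the more abundant form in both rescues, with 618 against 356 CPM per kilobase with wild-type BCL6 and 377 against 208 with the RD2 mutant.

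All 6 HSP90 co-chaperones were lower, with a median of -0.37. STIP1, which links HSP70 to HSP90, stood at 626, 636 and 632 CPM with wild-type BCL6 and at 461, 475 and 459 CPM with the RD2 mutant. The groups were well apart, and the log2 difference was -0.44 (SE 0.0292, adjusted p = 2.30e-11). FKBP4, the prolyl isomerase that joins HSP90 in steroid receptor complexes, stood at 216, 219 and 216 CPM against 133, 141 and 136 CPM. This was the largest difference among the co-chaperones, -0.67 (SE 0.0331, adjusted p = 1.97e-13). AHSA1, the activator of the HSP90 ATPase, was lower by a log2 difference of -0.55, and PTGES3, the p23 protein that steadies closed HSP90, by -0.29. The smallest differences were those of CDC37, which delivers kinases, at -0.18, and CHORDC1, at -0.11. The call of CHORDC1 (adjusted p = 0.0111) was lost without the wild-type rescue's replicate 2 (adjusted p = 0.0529) and without the mutant rescue's replicate 3 (adjusted p = 0.0570).

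Of the 4 cytosolic HSP70 genes, 3 were lower and HSPA14 did not pass the test. HSPA8, the constitutive HSC70, stood at 1821.5, 1836 and 1823 CPM with wild-type BCL6 and at 1178, 1278 and 1197 CPM with the RD2 mutant. The log2 difference was -0.59 (SE 0.0311, adjusted p = 6.21e-13). Per kilobase it was the most abundant of the 45 genes in both groups, at 742 and 494 CPM per kilobase. GENCODE lists 17 pseudogenes named after HSPA8 and how reads with several matches were counted is not stated in the sources here.

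The stress-inducible HSP70 genes were counted at far lower levels. HSPA1B had 1036, 944 and 1011 counts with wild-type BCL6 and 801, 775 and 740 with the RD2 mutant, a log2 difference of -0.36 (SE 0.0495, adjusted p = 1.70e-06). HSPA1A, nearly identical in sequence, had 67, 57 and 58 counts against 44, 41 and 45, a log2 difference of -0.47 (SE 0.164, adjusted p = 0.0141). The groups of each gene did not overlap, but reads cannot be assigned to one copy with certainty. Summed as a single gene, a step added after their values were seen, the pair had 1103, 1001 and 1069 counts against 845, 816 and 785, with a log2 difference of -0.37 (SE 0.0486, adjusted p = 1.00e-06). HSPA1A alone lost its call without the wild-type rescue's replicate 1 (adjusted p = 0.0621) and in DESeq2 (adjusted p = 0.0821). HSPA14, a ribosome-associated HSP70, stood at 92.2 ± 2.10 CPM against 94.9 ± 4.93 CPM (SD, n = 3 each) with overlapping groups and an adjusted p of 0.371.

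All 3 HSP110-type exchange factors were lower, with a median of -0.33. HSPH1, also called HSP105, stood at 605, 619 and 614 CPM with wild-type BCL6 and at 371, 403 and 374 CPM with the RD2 mutant. Its log2 difference of -0.68 (SE 0.0333, 1.601-fold, adjusted p = 1.64e-13) was the largest of the HSP70 and HSP110 genes. HSPA4L differed by -0.33 and HSPA4 by -0.26.

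All 3 BAG genes were lower as well, with a median of -0.42. BAG1, an exchange factor that links HSP70 to the proteasome, stood at 104.8, 104.7 and 103.8 CPM against 93.2, 97.5 and 93.2 CPM. The step was small but the groups were apart, with a log2 difference of -0.14 (SE 0.0355, adjusted p = 1.31e-03). BAG3, the stress-inducible member that steers HSP70 clients to autophagy, was scarce, with 75, 78 and 73 counts against 55, 53 and 48. Its log2 difference was -0.52 (SE 0.150, adjusted p = 3.98e-03). BAG2, an inhibitor of the ubiquitin ligase STUB1, differed by -0.42.

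**Figure D4:**
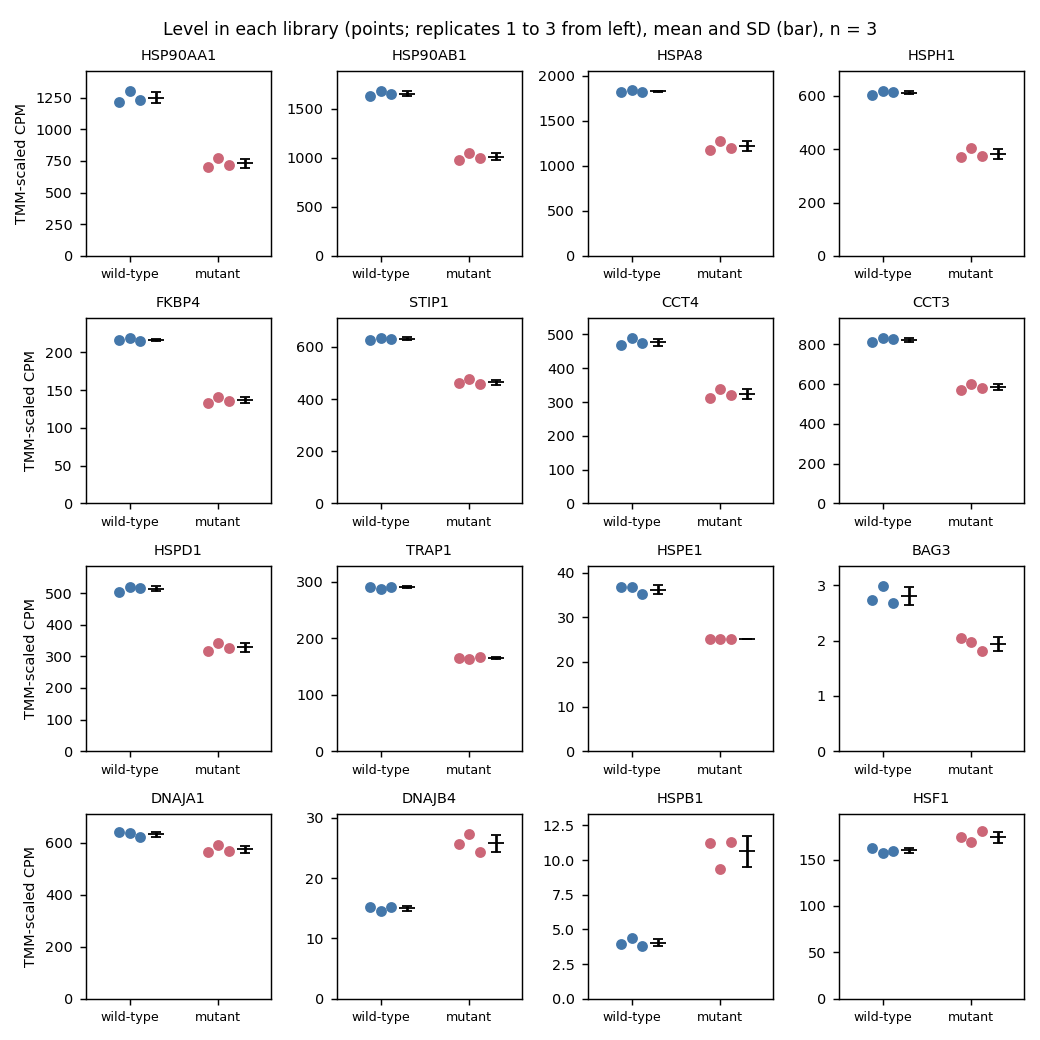
Level of selected chaperone genes in each library, in TMM-scaled CPM on axes that start at 0, with the mean and SD of each group as a bar (n = 3). DNAJB4, HSPB1 and HSF1 are higher in all mutant libraries, and the other genes drawn are lower in all of them.

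Neither HSF1 nor HSF2 was lower: HSF1 rose slightly and HSF2 did not pass the test. HSF1, the factor that answers heat and misfolded protein, stood at 163, 158 and 159 CPM with wild-type BCL6 and at 174, 168 and 180.3 CPM with the RD2 mutant. All mutant libraries were above all wild-type libraries, with a log2 difference of 0.12 (SE 0.0342, adjusted p = 3.11e-03). Exons of HSF1 overlap DGAT1 on the other strand. HSF2 stood at 50.2, 49.5 and 46.8 CPM against 48.4, 54.3 and 50.2 CPM, with overlapping groups (log2 difference 0.06, adjusted p = 0.264). The RNA level of a factor does not give its activity, which depends on release from chaperones, trimer formation and modification of the protein.

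Promoters were searched for the letters that a heat shock factor trimer binds. RefSeq promoters of GRCh38.p14, from 250 bases before to 50 bases after each start, were matched by symbol for 40 of the 45 genes, the others being HSPA14, HSPB11, HSF1, FKBP4 and CCT6A. The pattern of 3 units, GAANNTTCNNGAA or the same units starting from TTC, on either strand, was in a promoter of 7 of these 40 genes and of 0.608% of the 27305 genes in the reference. Of the 7 genes, 6 were lower (HSPA8, HSP90AA1, HSP90AB1, HSPD1, DNAJA1 and CHORDC1) and 1 was higher (DNAJB6). Over all 45 genes, 75.6% were lower and 15.6% were higher, and no link between the pattern and the differences was tested. These shares include the genes without a matched promoter. Of those, FKBP4 and CCT6A were lower, HSF1 and HSPB11 were higher, and HSPA14 did not pass. The stretches below show these letters in the HSP90 pair, in HSPA8, in CHORDC1, which has 3 overlapping matches and differed little, and in DNAJB6, which rose. HSPB1, the gene with the largest rise, has the shorter match of 2 units, GAANNTTC. Capitals mark the matched letters, and each stretch is written on its gene's strand. The stretches of HSP90AA1, HSPA8 and CHORDC1 lie within an annotated exon of a longer transcript. HSPA8 has a further match of 3 units, 230 bases before its start, that is not shown.
HSP90AA1, chr14:102087111-102087140, minus strand: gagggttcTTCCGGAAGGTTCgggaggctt
HSP90AB1, chr6:44247763-44247858, plus strand: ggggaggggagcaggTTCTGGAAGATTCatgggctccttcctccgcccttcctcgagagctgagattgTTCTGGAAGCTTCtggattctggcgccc
HSPA8, chr11:123062170-123062199, minus strand: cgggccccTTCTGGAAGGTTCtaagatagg
CHORDC1, chr11:90223083-90223112, minus strand: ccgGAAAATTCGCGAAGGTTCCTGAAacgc
DNAJB6, chr7:157336844-157336923, plus strand: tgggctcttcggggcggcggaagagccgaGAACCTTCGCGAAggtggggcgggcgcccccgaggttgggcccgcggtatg
HSPB1, chr7:76302453-76302532, plus strand: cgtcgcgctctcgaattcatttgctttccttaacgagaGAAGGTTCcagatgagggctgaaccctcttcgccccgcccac

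The 2-unit pattern, which every 3-unit match contains, was in promoters of 19 of the 40 genes and of 16.2% of all genes. Of these 19 genes, 15 were lower, 3 were higher and 1 did not pass. Among all 45 genes, including those without a matched promoter, 75.6% were lower and 15.6% were higher. The letters TTCNNNGAA, shared by STAT and BCL6 consensus sites, were in promoters of 3 of the 40 genes (DNAJC9, CCT5 and CCT8) and of 9.38% of all genes. CCAAT was in promoters of 13 of the 40 genes and of 39.7% of all genes. A match is only a match of letters, and binding was not measured in these libraries.

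The J-domain proteins start the HSP70 cycle. Of 10 genes, 4 were lower, 4 were higher and 2 did not pass, with a median of -0.02, and these counts are near the shares over all genes tested (34.8% lower and 35.4% higher). DNAJA1, the most highly counted of them and a partner of HSPA8, stood at 640, 638 and 622 CPM with wild-type BCL6 and at 563, 590.3 and 569 CPM with the RD2 mutant. The groups were apart by a small step of -0.14 (SE 0.0300, adjusted p = 2.89e-04). DNAJC2, which works on the ribosome, differed by -0.21, and DNAJC7, which holds both HSP70 and HSP90, by -0.18. DNAJA2 differed by -0.10 (adjusted p = 0.0388), and its call was lost without the wild-type rescue's replicate 1 (0.0687) or 2 (0.147) or the mutant rescue's replicate 1 (0.208) or 3 (0.104), adjusted p in each case. DNAJB1, the main heat-induced J-domain protein, stood at 70.0 ± 1.56 CPM against 65.7 ± 2.14 CPM (SD, n = 3 each), and missed the threshold (-0.09, adjusted p = 0.0510). It passed without the mutant rescue's replicate 1 (0.0429) or 2 (0.0217).

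Of the J-domain genes that rose, DNAJC9 alone was outside the DNAJB class. DNAJB4, with the largest rise among them, stood at 15.2, 14.5 and 15.2 CPM with wild-type BCL6 and at 25.6, 27.3 and 24.4 CPM with the RD2 mutant. Its log2 difference was 0.78 (SE 0.0628, 1.72-fold, adjusted p = 5.18e-10), and its exons overlap GIPC2 on the same strand. DNAJB6, a suppressor of polyglutamine aggregation, rose from 121 ± 1.29 to 178 ± 2.37 CPM (SD, n = 3 each), a log2 difference of 0.56 (SE 0.0324, adjusted p = 2.33e-12). DNAJB2, which passes clients on to the proteasome, rose by 0.46 and DNAJC9, a histone chaperone, by 0.13. DNAJC8, a splicing-associated member, did not pass (0.04, adjusted p = 0.294).

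Both genes named as small heat shock proteins were higher. HSPB1, or HSP27, which holds unfolded proteins without ATP, had 109, 114 and 104 counts with wild-type BCL6 and 301, 251 and 301 with the RD2 mutant. It was scarce in both groups, at 4.05 ± 0.282 and 10.6 ± 1.11 CPM (SD, n = 3 each). The log2 difference of 1.39 (SE 0.105, 2.62-fold, adjusted p = 1.95e-10) was the largest of the 45 genes in either direction. GENCODE names 2 pseudogenes after HSPB1, and how reads with several matches were counted is not stated. HSPB11 stood at 64.3, 59.2 and 64.01 CPM against 70.2, 70.6 and 68.3 CPM. Its groups did not overlap, with a log2 difference of 0.16 (SE 0.0423, adjusted p = 2.50e-03). HSPB11 carries the name but is known as IFT25, a part of the intraflagellar transport complex of cilia.

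All 8 TRiC subunit genes were lower, with a median of -0.42. CCT3 stood at 810.4, 832 and 826 CPM with wild-type BCL6 and at 573, 601 and 581 CPM with the RD2 mutant, a log2 difference of -0.49 (SE 0.0296, adjusted p = 4.82e-12). CCT4, with the largest difference, stood at 468, 489 and 474 CPM against 312, 338 and 321 CPM, a log2 difference of -0.56 (SE 0.0337, adjusted p = 5.11e-12). In both genes the mutant libraries lay far below the wild-type libraries. TCP1 (-0.52), CCT6A (-0.47), CCT7 (-0.38) and CCT2 (-0.37) followed, and CCT8 (-0.24) and CCT5 (-0.11) differed least. Per kilobase the levels of these subunits, which stand in equal number in the assembled ring, ranged from 146 to 383 CPM with wild-type BCL6 and from 102 to 272 CPM with the RD2 mutant. CCT3 was the highest and TCP1 the lowest in both. Exons of CCT4 overlap COMMD1, and those of TCP1 overlap ACAT2.

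All 5 mitochondrial genes were lower, with a median of -0.53. TRAP1, the HSP90 of mitochondria, stood at 290.35, 288 and 291 CPM with wild-type BCL6 and at 164, 164 and 167 CPM with the RD2 mutant. This was the largest fall of the whole list, with a log2 difference of -0.81 (SE 0.0307, 1.76-fold, adjusted p = 2.33e-15), and exons of TRAP1 overlap DNASE1 on the other strand. HSPD1, the large subunit of the matrix chaperonin, stood at 505, 521 and 517 CPM against 317, 343 and 326 CPM, a log2 difference of -0.65 (SE 0.0330, adjusted p = 3.24e-13). HSPE1, its small lid subunit, differed by -0.53 (SE 0.0495), from 36.2 ± 0.935 to 25.1 ± 0.0436 CPM (SD, n = 3 each). GENCODE names 26 pseudogenes after HSPE1 and 17 after HSPD1, and exons of the pair overlap each other on opposite strands, which makes both levels uncertain. DNAJA3, the matrix J-domain protein, differed by -0.35 and HSPA9, the matrix HSP70, by -0.17.

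HSPD1 and HSPE1 are transcribed away from each other from a shared stretch of chromosome 2, with 104 bases between their starts. Of this stretch, 30 bases are shown because both promoters hold the same E-box, CACGTG, the letters that MYC with MAX binds. The E-box is in capitals on the strand of HSPE1, and the 30 bases lie within an annotated exon of a longer transcript.
HSPD1 to HSPE1, chr2:197500345-197500374, plus strand: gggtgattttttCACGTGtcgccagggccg
CACGTG was in promoters of 5 of the 40 matched genes and of 8.77% of all genes. Besides this pair these were HSPA9, which was lower, and HSF2 and DNAJC8, which did not pass.

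In the wider chaperone network, a list of 95 other co-chaperones, J-domain proteins, prefoldins, tubulin cofactors and mitochondrial quality-control genes had 84 genes that passed the filter. Of these, 35 were lower, 21 were higher and 28 did not pass the test, with a median of -0.07. Beside the 34.8% lower and 35.4% higher among all genes tested, these counts are not read as a result about the list. The 11 genes left out were HSP70 and small heat shock genes, among them the strictly stress-inducible HSPA6 and the lens crystallin CRYAB, with at most 9 counts in any library.

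The 4 lower genes of this list with the smallest p were HSBP1, HSPBP1, DNAJC6 and RUVBL1. HSBP1, a small protein that binds the trimer domain of HSF1, fell from 332 ± 6.11 to 216 ± 3.23 CPM (SD, n = 3 each), a log2 difference of -0.62 (adjusted p = 2.24e-13). HSPBP1, an HSP70 exchange factor, fell from 105 ± 2.44 to 59.7 ± 2.97 CPM (-0.81, adjusted p = 3.14e-13). DNAJC6, or auxilin, which uses HSC70 to uncoat clathrin vesicles, fell from 20.1 ± 0.646 to 8.63 ± 0.864 CPM (-1.22, adjusted p = 1.20e-11). The ATPase RUVBL1 fell from 195 ± 4.99 to 136 ± 3.23 CPM (-0.52, adjusted p = 1.77e-11), whereas its partner RUVBL2 did not pass (0.05, adjusted p = 0.263). The 4 higher genes with the smallest p changed by less: DNAJC14 (0.30), HTRA2 (0.34), DNAJB12 (0.32) and PIH1D1 (0.25).

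The list of 15 prefoldin and TRiC co-factor genes had 4 lower, 6 higher and 5 that did not pass, with a median of 0.00. CCT6B, a CCT gene and not a partner of TRiC, was counted in this list among the higher genes. Both genes of the nascent chain complex, NACA (-0.33) and BTF3 (-0.38), which meets proteins as they leave the ribosome, were lower. Of 14 further mitochondrial genes, 8 were lower, 5 were higher and 1 did not pass. The 2 exchange factors of HSPA9 went apart, with GRPEL1 at -0.36 (adjusted p = 3.01e-06) and GRPEL2 at 0.23 (adjusted p = 1.33e-04). Of 24 further J-domain genes, 9 were lower, 5 were higher and 10 did not pass. The shares over all genes tested, 34.8% lower and 35.4% higher, are the background for each of these short lists, and no difference between lists was tested.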

How the data were processed

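Per the labels' protocols, RNA was isolated in Trizol and made into TruSeq RNA libraries. CASAVA 1.8.2, STAR and edgeR with build hg19 are named in the submitters' processing notes. Not given in the sources used here are the read counter, the annotation, the strand setting and the treatment of reads with several matches. The deposited table holds unnormalized counts for each gene symbol, with a column for each library. Libraries were grouped by their labels, 3 per rescue. Genes were kept with filterByExpr at its defaults (12406 of 23250) and scaled by TMM, and both rescues were compared with glmQLFit (robust) and glmQLFTest in R 4.3.3 with edgeR 4.0.16. P-values were adjusted by Benjamini-Hochberg over all genes tested, with a threshold of 0.05, and the test was tried on simulated counts. Levels are TMM-scaled CPM computed from the counts, where 3 counts are worth 0.109 to 0.114 CPM depending on the library. Intervals and errors come from the libraries, which differed by more than counting noise.

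The members, role groups, wider list, markers and motifs were chosen with earlier results of these data known. Values in every library were given for both genes of a role group of 2, and otherwise for the gene with the highest mean CPM and the gene with the largest absolute log2 difference among those with a mean count of at least 50, and for HSPA1A, HSPA1B, HSF1 and BCL6. Of the wider list, the 4 higher and 4 lower called genes with the smallest p were named. RUVBL2, NACA, BTF3, GRPEL1, GRPEL2, CCT6B and the per-library SD of other genes were added after their values were seen. Transcript length, GC content, overlaps and pseudogene names came from GENCODE v29 (longest transcript, matched by symbol for 95.5% of genes tested and all 45 members). In it, 17 members have a pseudogene named after them, 16 have exons that overlap another gene of the table, and 19 have neither. Only names made of the full symbol, P and a number were counted. Pseudogenes under other names, such as CCT6P1 and CCT6P3, were missed, so the 19 genes may also share reads. Promoters came from RefSeq, GRCh38.p14. Alternatives were other scalings, limma-voom (limma 3.58.1), DESeq2 1.42.0, edgeR's likelihood ratio test, glmTreat, other filters, a replicate block, removal of GC and length trends (mgcv 1.9.3), and leaving out each library.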

Additional observations from a re-analysis of the deposited data

How the results depend on the processing

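Of 45 genes, 0 changed direction with a call under any alternative. The count of lower genes was 32 to 35 and that of higher genes 7 under every scaling, filter, test and omitted library, except against a minimum change of 1.2-fold (glmTreat), where 20 members were lower and 4 higher, and 2202 of all genes were lower and 2383 higher. There 17 members lost their call. The median over the members was -0.26 with scaling by library size, -0.27 with at least 1 CPM in all libraries, -0.33 with GC and length trends removed, and -0.25 to -0.32 when 1 library was left out. Apart from glmTreat, calls changed for DNAJA2 (also lost with library size scaling, adjusted p = 0.0865, with at least 1 CPM, 0.0765, and in DESeq2, 0.0532), HSPA1A, CHORDC1 and DNAJB1 (gained with RLE scaling, 0.0403, upper-quartile scaling, 0.0373, limma-voom, 0.0483, no filter, 0.0441, and GC and length trends removed, 3.66e-03). The replicate numbers shared by the rescues were not taken to pair the libraries, and whether they do was not settled. Deviations of same-numbered libraries had correlations of 0.196, 0.239 and -0.072, against -0.255 to 0.106 for libraries of different numbers. Replicates 1 and 2 of each rescue correlated best with their own number, and replicate 3 of each did not. With a replicate block, 35 members were lower, DNAJB1 now among them (adjusted p = 0.0207), and 7 higher, and 4605 of all genes were lower and 4680 higher. Summing HSPA1A and HSPA1B was chosen after seeing the data. Counting depth limits HSPA1A and BAG3 most, whose standard errors were 0.164 and 0.150.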
